A study of Mus musculus with 16 samples.

Results

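Does the Tg/Tg genotype act on the same genes, in the same direction and to the same extent, in the organ of Corti (OC) at P5 and in the cochlea at P18? All 16 samples of the study, hybridized to 16 MoGene 1.0 arrays, were used for this question. They fall by name into P5-OC WT (5), P5-OC Tg/Tg (5), P18-cochlea WT (3) and P18-cochlea Tg/Tg (3). The quantity described is a difference of differences on the log2 scale: the genotype effect (Tg/Tg minus WT) at P18 minus the genotype effect at P5, so that a value of 1 means that the Tg/Tg to WT ratio was 2-fold greater at P18. All mice are FVB/NCrl. WT mice carry no transgene, and Tg/Tg mice are homozygous for Tg1MDW, a single transgenic line in which a core human GFAP promoter drives Mir183, Mir96 and Mir182 and whose insertion lies on chromosome 9. The GFAP promoter is used to reach supporting cells, and it is also active in other glia. P5 samples hold microdissected OC and P18 samples hold cochlea, so age and tissue change together and cannot be told apart. Whether each array was made from a single animal or from a pool is not stated, and the p-values measure the spread between these samples, which may be technical.

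The miR-183 cluster is a set of 3 co-transcribed microRNAs of sensory cells. A microRNA pairs through its seed, the stretch of bases near its 5′ end, with sites in messenger RNAs and lowers their stability or translation. The auditory nerve fibers that reach the OC are wrapped by Schwann cells, which build myelin under the transcription factors Sox10 and Egr2 during the first postnatal weeks. Muscle, brain and marrow-bearing bone lie close to the cochlear capsule.

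The mature sequences carried by the transgene are shown because they define the perturbation common to both stages. They are the RefSeq entries of GRCm38.p6, all on the minus strand of chromosome 6, written 5′ to 3′ with the seed (bases 2 to 8) in capitals.
mmu-miR-183-5p (chr6:30169711-30169732): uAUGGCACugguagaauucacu
mmu-miR-96-5p (chr6:30169506-30169528): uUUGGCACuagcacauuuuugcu
mmu-miR-182-5p (chr6:30165962-30165986): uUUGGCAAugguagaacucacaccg
The seeds of miR-96 and miR-182 differ only in their last base, and that of miR-183 has another first base.

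Probesets of the transgene rose at both stages. The differences between their effects did not pass the test, although that of Prm1 did in some alternative settings. The Mir183 probeset was at 3.39 ± 0.18 (SD, n = 5) in WT and 6.70 ± 0.50 (SD, n = 5) in Tg/Tg at P5, and at 3.05 ± 0.06 (SD, n = 3) and 6.52 ± 0.18 (SD, n = 3) at P18. Its genotype effects of 3.31 and 3.47 differed by 0.16 (95% interval -0.48 to 0.80). For Mir96 the effects were 3.40 and 3.36, a difference of -0.04 (95% interval -0.53 to 0.45). For Mir182 they were 3.46 and 4.09, a difference of 0.63 (95% interval -0.03 to 1.28). Mir96 and Mir182 are named here by the platform annotation, and the tables of the study give these names to the probesets the other way round. The lower quartile of signal on the dimmest array was 4.54. WT means of Mir183 at both stages and of the other 2 at P18 were under that value, where background can hold a signal up and shrink a ratio. Prm1, a protamine gene of maturing sperm that the study lists as an element of Tg1MDW, had effects of 3.68 at P5 and 2.50 at P18, and their difference of -1.17 (standard error 0.27) had an adjusted p of 0.066 in limma. It passed in 7 of 30 alternative settings, with adjusted p of 0.011 to 0.035. In all 4 probesets every Tg/Tg array lay above every WT array of its stage, which fits the sample names. Other label fields conflict with the name in age or genotype for all 16 samples, and grouping followed the names.

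Medians of the arrays lay between 6.33 and 6.63, and correlations between arrays were 0.973 to 0.992 for P5 pairs, 0.990 to 0.995 for P18 pairs and 0.902 to 0.937 across the stages. P5-OC Tg/Tg replicate 3 had the widest scatter about its group, with a residual SD of 0.29 against 0.20 to 0.27 on the other P5 arrays and 0.13 to 0.16 on the P18 arrays. The mean of 3 Y-linked probesets was 8.61 to 8.96 on 4 WT arrays and 1 Tg/Tg array at P5 and 3.90 to 4.06 on the other 5, whereas every P18 array was intermediate, at 7.22 to 7.34 in WT and 7.65 to 7.66 in Tg/Tg. Xist, the X-linked transcript of female cells, ran the other way. At P5 it was at 4.35 to 4.80 on those 4 WT and 1 Tg/Tg arrays and at 11.67 to 11.90 on the other 5. At P18 it was at 8.96 to 9.09 in WT and 9.27 to 9.36 in Tg/Tg. Each P18 array thus carried both signals, as RNA from both sexes would. The sexes are not stated, but by these levels genotype and sex were unevenly matched at P5. At P18 the genotypes did not overlap in the Y-linked level. With the Y-linked mean added as a covariate 111 probesets differed, and 106 of them were among those described here.

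The genotype effect differed between stages for 207 of 34760 probesets (0.596%, limma, adjusted p under 0.05 over all probesets), 188 toward higher values at P18 (0.541%) and 19 toward lower (0.0547%). At this threshold 212 probesets had a genotype effect at P5 (0.61%) and 154 at P18 (0.443%). Most of the P5 calls were falls, 191 of 212, and most of the P18 calls were rises, 133 of 154. Of the falls at P5, 82 had an effect that differed at P18, and none was called as a fall there (2 of the 191 at an unadjusted p under 0.05). Of the P18 rises, 79 differed from P5. The count of 207 changed when single libraries were left out. It was 584 without P5-OC Tg/Tg replicate 3, with 72.3% toward higher, and 335 without P5-OC WT replicate 1. It was 129, 127 and 133 without P18-cochlea Tg/Tg replicate 2, Tg/Tg replicate 3 and WT replicate 1, and 141 to 145 without any other P18 array. All 207 were among the 584, and 203 were among the 335.

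Among the 207, the commonest pattern was a fall at P5 with no call at P18, in 76 probesets of 72 named genes. Their median effect was -0.78 at P5 and 0.17 at P18. The next was no call at P5 and a rise at P18, in 73 probesets of 61 named genes, with median effects of -0.04 and 1.26. A fall at P5 and a rise at P18 were both called for 6 genes, and a rise at P5 with a fall at P18 for 1 gene. The remaining calls toward lower values were 9 probesets that fell only at P18 by this threshold, 2 that rose only at P5, and 7 called at neither stage. A further 33 differed toward higher values without a call at either stage, all with an effect below 0 at P5 and above 0 at P18.

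**Figure D1:**
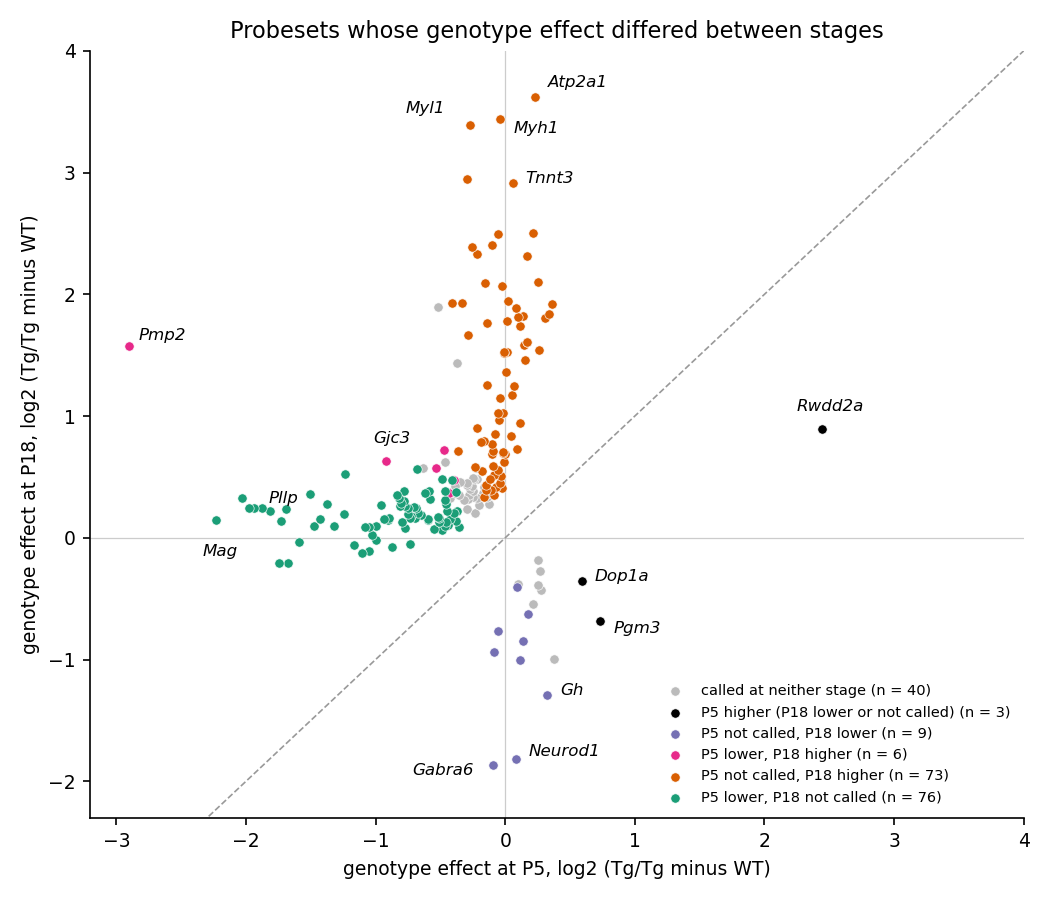
Genotype effect at P5 (x axis, log2, Tg/Tg minus WT) against the genotype effect at P18 (y axis, same unit) for the 207 probesets whose effects differed, colored by the calls at each stage; the dashed line marks equal effects. The 76 probesets that fell at P5 alone spread along the x axis, the 73 that rose at P18 alone along the y axis, and Pmp2 stands apart at -2.91 and 1.57.

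For 7 genes the effects were called at both stages and opposite in sign. In each of them the genotypes did not overlap at either stage, but they were picked by calls on these same values, so this is no further support. Pmp2, the lipid-binding myelin protein P2 of Schwann cells, had the greatest difference of all. Its 5 WT arrays at P5 read 7.91, 8.29, 8.17, 8.07 and 8.16, and the 5 Tg/Tg arrays read 5.66, 5.74, 5.02, 4.53 and 5.12. At P18 the WT arrays read 5.06, 5.50 and 4.97 and the Tg/Tg arrays 6.73, 6.77 and 6.75. Tg/Tg was thus the lower genotype at P5 and the higher at P18, with a difference of 4.48 (95% interval 3.84 to 5.13, adjusted p = 8.3e-07). Read along the stages, WT went down by 2.94 from P5 to P18 while Tg/Tg went up by 1.54.

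Gjc3 encodes a connexin of myelinating glia. At P5 its WT arrays read 11.51, 11.65, 11.80, 11.83 and 11.88 and its Tg/Tg arrays 10.77, 10.74, 10.97, 10.76 and 10.82. At P18 WT was at 10.08, 9.97 and 10.05 and Tg/Tg at 10.65, 10.57 and 10.77. The WT level therefore dropped between the stages, by 1.70, and the Tg/Tg level hardly moved, by 0.15, so that the order of the genotypes turned. The difference was 1.55 (standard error 0.13, adjusted p = 6e-06).

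Itgb8, an integrin subunit, showed the same arrangement, at 11.17 ± 0.19 in WT and 10.70 ± 0.14 in Tg/Tg at P5 (SD, n = 5) and 9.62 ± 0.06 and 10.35 ± 0.02 at P18 (SD, n = 3). Snx16, a sorting nexin of endosomes, went from 8.56 ± 0.11 and 8.03 ± 0.10 to 7.40 ± 0.02 and 7.98 ± 0.10, and Lcorl, a nuclear receptor corepressor-like protein, from 7.98 ± 0.09 and 7.59 ± 0.05 to 6.93 ± 0.08 and 7.41 ± 0.10. In these 3 genes, as in Gjc3, the change between stages lay mostly in WT. Cyp2j6, an epoxygenase, differed from them, since WT moved by -0.13 between stages and Tg/Tg by 0.67. Differences were 1.20 for Itgb8, 1.10 for Snx16, 0.87 for Lcorl and 0.80 for Cyp2j6, with adjusted p between 7.8e-05 and 0.00043. The P18 rise of Cyp2j6 was close to the threshold (0.37, adjusted p = 0.046).

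Pgm3, an enzyme of UDP-N-acetylglucosamine synthesis, turned the other way. Its P5 arrays read 7.97, 8.51, 8.11, 8.04 and 8.12 in WT and 8.72, 8.88, 8.94, 8.94 and 8.94 in Tg/Tg, and its P18 arrays 7.44, 7.33 and 7.57 in WT and 6.67, 6.74 and 6.88 in Tg/Tg. Tg/Tg was higher by 0.73 at P5 and lower by 0.68 at P18, a difference of -1.41 (standard error 0.15, adjusted p = 0.00012).

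**Figure D2:**
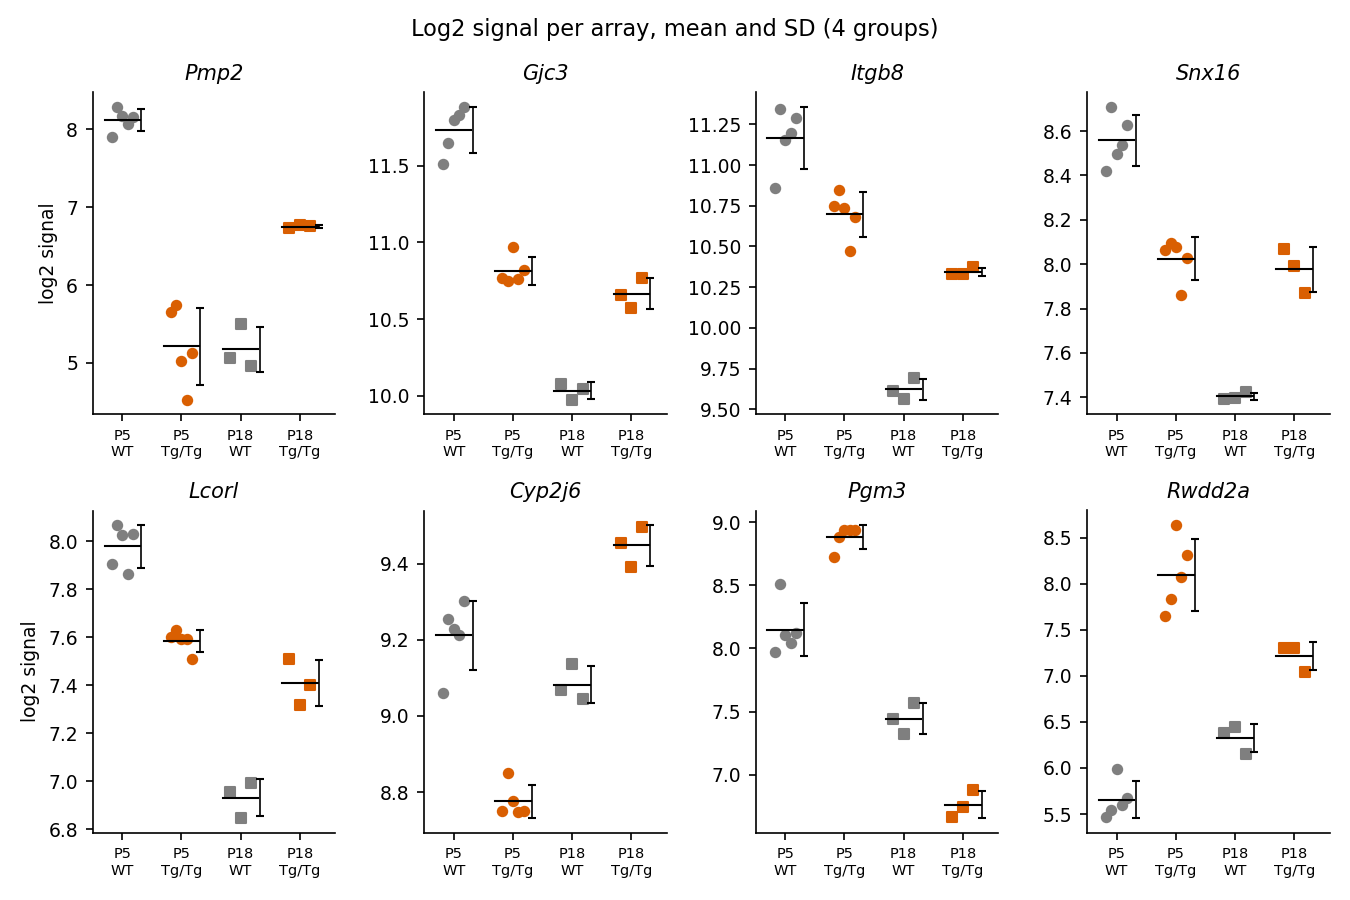
Log2 signal of each array (y axis) in the 4 groups for the 7 genes with opposite calls at P5 and P18 and for Rwdd2a; horizontal bars are group means and error bars SD (n = 5 per P5 group, n = 3 per P18 group). In Pmp2 the Tg/Tg arrays lie at 4.53 to 5.74 below WT at P5 and at 6.73 to 6.77 above WT at P18, and Pgm3 shows the reverse order.

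Genes of the myelin sheath were the main listed group among the P5 falls, with 17 of the 72 genes that fell at P5 alone on the myelin, Schwann cell or oligodendrocyte lists. Of 30 measured genes on a list of the peripheral myelin sheath, 21 fell at P5 and none rose, while at P18 2 rose and none fell (at an unadjusted p under 0.05, 0 rose at P5 and 0 fell at P18, beside 1227 and 728 of 19938 named genes). The genotype effect differed between stages for 18 of the 30, all toward higher values at P18, against 0.541% of all probesets and 164 of 19938 named genes. Because the lists were chosen with earlier results of these data known, such contrasts are partly built in and test nothing. The median difference of the list was 1.04, with median effects of -0.94 at P5 and 0.15 at P18, beside medians of 0.02, -0.03 and -0.02 over all named genes. All 30 had a difference above 0, as had 53.0% of all named genes. WT levels of the list were close between the stages, with a median change of 0.14, and Tg/Tg levels rose by a median of 1.16.

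Mag, the myelin-associated glycoprotein of the membrane facing the axon, is a plain case. The P5 arrays read 9.07, 9.14, 8.94, 8.84 and 8.92 in WT and 6.96, 7.18, 6.45, 6.55 and 6.60 in Tg/Tg. At P18 they read 9.02, 8.97 and 9.07 in WT and 9.05, 9.18 and 9.28 in Tg/Tg, so the groups were apart at P5 and overlapped at P18. The effect went from -2.23 to 0.15, a difference of 2.38 (95% interval 1.96 to 2.80, adjusted p = 6.5e-06). Pllp, the tetraspan protein plasmolipin, read 9.25, 8.93, 9.15, 9.23 and 9.04 in WT and 7.48, 7.52, 7.37, 7.23 and 7.35 in Tg/Tg at P5, and 9.28, 9.24 and 9.38 against 9.36, 9.51 and 9.44 at P18. It too was separated at P5 alone, with a difference of 1.86 (standard error 0.12, adjusted p = 8.3e-07).

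The other myelin genes with a difference above 1.8 were Cldn19, the claudin of Schwann cell tight junctions (2.36), Fa2h, which hydroxylates myelin lipids (2.22), Dusp15, a phosphatase (2.13), Gldn, which clusters sodium channels at nodes (2.04), and Ugt8a, the galactosylceramide synthase (1.87). Among the structural proteins, differences were 1.58 for Prx, the scaffold of the outer sheath, 1.23 for Pmp22, 1.06 for Cnp, 1.05 for Mbp, which compacts the membrane, and 0.93 for Mal.

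Of the 12 listed myelin genes whose difference did not pass, Drp2 (-1.08 at P5, adjusted p = 0.012), Cadm4 (-0.39) and Cd9 (-0.45) had nonetheless fallen at P5. Gjb1, the connexin of Schwann cell incisures, had effects of only -0.10 and 0.02. In bulk RNA, fewer cells of a type and less RNA per cell cannot be told apart. The mean log2 level of 4 Schwann cell markers moved with the myelin genes. It was 9.71 to 9.98 on WT and 8.63 to 9.01 on Tg/Tg arrays at P5 and 9.12 to 9.17 and 9.19 to 9.26 at P18, and 3 of the 4 were themselves among the genes that differed. Its part in the result was not tested. Once the Y-linked mean was added as a covariate, 15 of the 30 myelin genes differed.

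Of 25 measured regulators and lineage genes of Schwann cells, 3 differed, all toward higher values at P18, with a list median of 0.29. Egr2, the transcription factor that drives myelin genes, had P5 arrays at 9.0, 9.31, 9.15, 9.09 and 9.24 in WT and 7.63, 8.0, 7.75, 7.20 and 7.26 in Tg/Tg. Its P18 arrays were at 8.29, 8.30 and 8.46 in WT and 8.32, 8.35 and 8.28 in Tg/Tg. The genotypes were 1.59 apart at P5 and overlapped at P18, where the level stood between the P5 groups. The difference was 1.55 (standard error 0.21, adjusted p = 0.0009). Pou3f1, which acts before Egr2, fell at P5 by 0.74 (adjusted p = 0.0014) and its difference of 0.73 had an adjusted p of 0.067. Sox10, which marks the whole lineage, had effects of -0.14 and -0.08 and a difference of 0.07 (adjusted p = 0.88), and Erbb3, the neuregulin receptor, had a difference of 0.69 (adjusted p = 0.13).

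The other 2 genes of the list that differed are markers of immature or non-myelinating glia, and they differed through P18. Fabp7, a fatty acid-binding protein of glial precursors, read 12.40, 12.15, 12.40, 12.44 and 12.53 in WT and 12.47, 12.45, 12.51, 12.51 and 12.57 in Tg/Tg at P5, and 9.77, 9.78 and 9.71 against 10.69, 10.71 and 10.70 at P18. It overlapped at P5 and was separated at P18, where Tg/Tg was higher by 0.94 (adjusted p = 1.3e-05). Cdh19, a cadherin of Schwann cell precursors, had effects of 0.09 and 0.73 and a difference of 0.63 (adjusted p = 0.036), a call that was lost in 15 of 28 alternative settings. Pou3f2 is measured by 2 probesets that disagreed, one with a difference of 1.07 and the other, not called, with 0.26.

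Of 19 measured genes of the oligodendrocyte, the myelinating cell of the central nervous system, 4 differed. Mag, Mbp and Bcas1 (0.94) are on the peripheral sheath list too, and the fourth was Aspa, which breaks down N-acetylaspartate (1.09, adjusted p = 0.018, lost in 5 alternative settings). The list median was 0.11. Mog and Mobp, myelin proteins of oligodendrocytes, had differences of -0.05 and 0.11, and neither passed.

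Genes of the fall at P5 went beyond the sheath: 50 of the 72 named genes were on none of 32 lists. Slc9a3, a sodium-proton exchanger, was the strongest of them by its test. Its arrays read 7.70, 8.11, 7.88, 7.82 and 7.89 in WT and 6.18, 6.21, 5.76, 5.83 and 5.71 in Tg/Tg at P5, and 7.68, 7.69 and 7.69 against 7.87, 7.96 and 7.97 at P18. All P5 Tg/Tg arrays lay far below WT, and at P18 Tg/Tg lay slightly above WT, with an effect of 0.25 that did not pass (adjusted p = 0.66). The difference was 2.19 (standard error 0.17, adjusted p = 3.3e-06).

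Other genes of this pattern, picked here after their values were seen, include enzymes of sterol and fatty acid synthesis: Hmgcs1, the entry enzyme of the mevalonate pathway (-0.58 at P5, 0.32 at P18, difference 0.90), Idi1, which follows it (difference 0.99), and the chain elongases Elovl6 (0.52) and Elovl7 (0.77). The axon-glia group holds Dhh, the hedgehog ligand made by Schwann cells (-0.78 at P5, difference 1.08), Itga6, a laminin receptor subunit (difference 0.93), Fyn, a kinase that signals from Mag-bearing membranes (0.98), and Qk, an RNA-binding protein of myelinating cells (0.68). Kcna1 and Kcna2, the potassium channel subunits placed beside the nodes of myelinated axons, had differences of 1.54 (adjusted p = 0.033) and 0.59 (adjusted p = 0.039), and both had fallen at P5. Arhgap19 (1.93), Mlip (1.76), Rasgef1a (1.65) and Adamts20 (1.57) had the next differences in size after Slc9a3 among genes on no list. Dusp4, a phosphatase that dampens ERK signaling, read 7.02 to 7.58 in WT and 5.48 to 6.38 in Tg/Tg at P5 and overlapped at P18 (difference 1.42, adjusted p = 0.0051). It was the single member of 20 ERK feedback genes to differ, and its call was lost with replicate numbers as a block (adjusted p = 0.081). Il16, a cytokine precursor that is on the granule neuron list for its neuronal form, behaved as the myelin genes did, with effects of -1.10 and -0.12.

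Turning to P18, the rise there with no call at P5 was mostly a matter of skeletal muscle: 36 of the 61 named genes were on 5 muscle lists, and 20 were on no list. On the 5 lists together, 114 genes were measured, and 36 differed toward higher values at P18 and none toward lower (55 and 2 at an unadjusted p under 0.05). Over all 19938 named genes the counts were 164 and 16 (2092 and 1212 at an unadjusted p under 0.05). At P5 none of the 114 was called by limma (17 at an unadjusted p under 0.05, 12 of them higher in Tg/Tg), and at P18 45 rose. At P5 3512 of the 19938 named genes had such an unadjusted p, 1227 of them higher in Tg/Tg. The median difference was 0.36, against 0.02 over all named genes. The muscle lists, too, were chosen with earlier results of these data known, so the contrast is a description and no test.

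Contractile proteins of fast fibers led. Of 18 measured, 10 differed, with a list median of 0.90. Myh1, the myosin heavy chain of fast 2X fibers, was at 4.70 to 4.82 on the WT and 4.61 to 4.83 on the Tg/Tg arrays at P5. At P18 it read 5.01, 5.16 and 5.20 in WT and 8.43, 8.59 and 8.68 in Tg/Tg. Tg/Tg thus equalled WT near the dim end of the scale at P5 and stood more than 3 log2 units above it at P18, and the difference of 3.48 (95% interval 3.25 to 3.71, adjusted p = 6.5e-11) had the lowest p of all probesets. Myl1, the fast alkali light chain, read 6.95, 6.60, 6.22, 6.89 and 6.68 in WT and 6.63, 6.35, 6.37, 6.28 and 6.37 in Tg/Tg at P5, and 6.60, 6.50 and 6.65 against 9.96, 9.93 and 10.03 at P18. It overlapped at P5, was widely separated at P18, and had the largest difference of the muscle genes, 3.66 (standard error 0.19). Tnnt3, the fast troponin T, differed by 2.86 (standard error 0.18), and the 2A and 2B myosin heavy chains Myh2 and Myh4 by 1.44 and 1.51.

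Calcium handling and energy genes took part. Atp2a1, the calcium pump of the fast sarcoplasmic reticulum, read 5.50 to 6.15 in WT and 5.67 to 6.33 in Tg/Tg at P5, and 6.29, 6.29 and 6.35 against 9.87, 9.97 and 9.94 at P18. Only the P18 Tg/Tg arrays were high, and the difference was 3.39 (standard error 0.21, adjusted p = 3.2e-07). Casq1, the calcium store of the same organelle, differed by 2.51, Srl by 1.12, and Trdn, its anchor, by 2.24, with 10 of 19 Trdn probesets called and values from 0.27 to 3.24. Those were 4 of 24 measured calcium and excitation genes, whose median was 0.18. Of 22 muscle energy genes 7 differed, with a median of 0.33, among them Ckm, the muscle creatine kinase (2.15, standard error 0.16), Mb, the oxygen-binding myoglobin (1.85), Ckmt2 (1.80), Eno3 (1.93), Pgam2 (1.31) and Ppp1r3a (1.53). Of 29 sarcomere genes 8 differed, with a median of 0.34, including Myoz1 (2.55), Neb (1.77), Acta1 (1.56), Ttn (1.54) and Actn2 (1.44).

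Not every muscle gene on the lists differed. Myh3 and Myh8, the embryonic and neonatal myosins, had differences of -0.02 and 0.04, and the slow genes Myh7, Myl2 and Tnni1 had 0.03, -0.01 and 0.45, none of which passed. On the slow and cardiac list 1 of 18 differed, Actc1, the cardiac actin that skeletal muscle also makes while young (6.15 to 6.87 in WT and 6.43 to 6.93 in Tg/Tg at P5, 7.0 to 7.20 and 9.54 to 9.70 at P18, difference 2.29). The myogenic list had 7 of 21 and a median of 0.06. Mstn, the growth inhibitor of muscle, differed by 1.40, Asb12 by 1.19 and Myf6, the late myogenic factor, by 0.79, whereas the satellite cell and early factors Pax7 (-0.39), Myod1 (0.06) and Myog (-0.15) did not pass. Asb12 was above 4.54 in P18 Tg/Tg alone (mean 5.52) and Mstn was under it in P18 WT (4.43), so both sizes are limited by background. Mylk4, a myosin kinase on no list, had 2.09. Smooth muscle had 1 of 15, Smtn (0.68), which had fallen at P5 and so followed the pattern of the myelin genes.

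Skeletal muscle is no part of the cochlea. The mean log2 level of 5 muscle markers was 5.79 to 6.23 and 5.89 to 6.29 on P5 WT and Tg/Tg arrays, 6.37 to 6.42 on P18 WT arrays and 9.20 to 9.31 on P18 Tg/Tg arrays, and all 5 markers differed. All 3 P18 Tg/Tg arrays were high together, so no single library carries the result. Whether their tissue was collected separately is not stated, so something shared by all 3 cannot be told apart from genotype. What share of it comes from muscle lying on the samples was not tested.

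**Figure D3:**
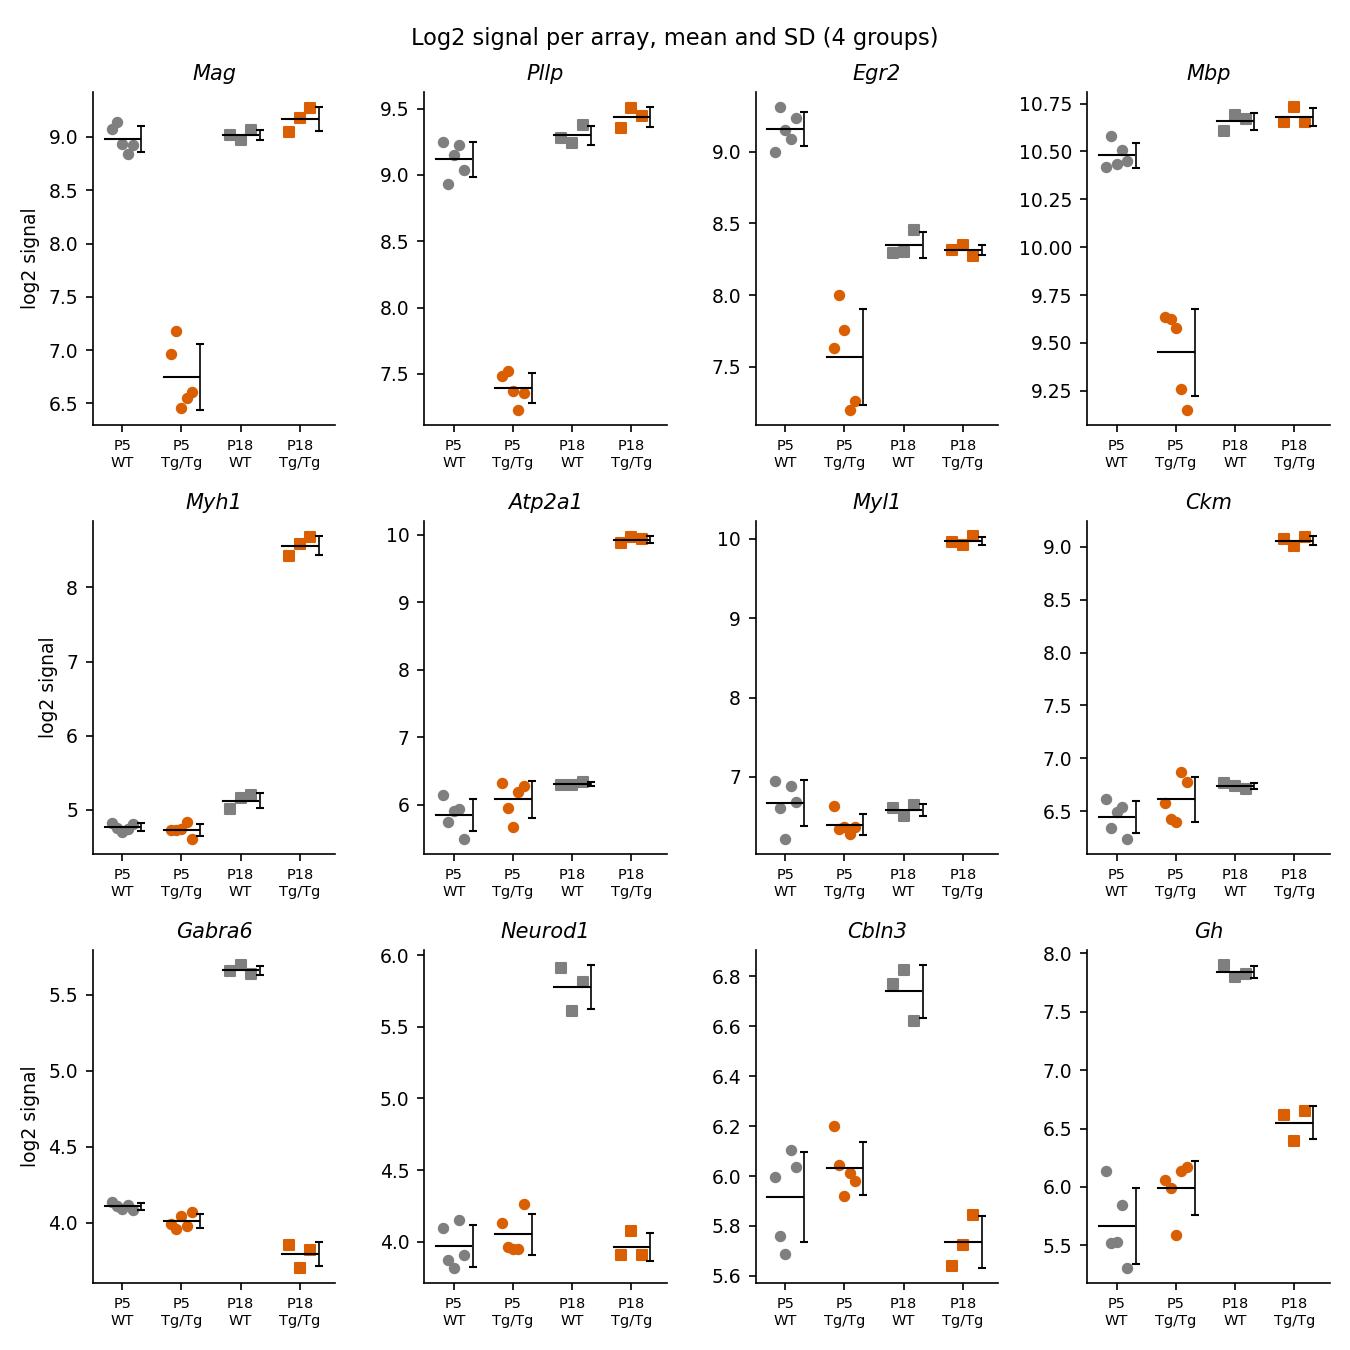
Log2 signal of each array (y axis) in the 4 groups for 12 genes: 4 myelin or Schwann cell genes (Mag, Pllp, Egr2, Mbp), 4 muscle genes (Myh1, Atp2a1, Myl1, Ckm) and 4 genes lower at P18 (Gabra6, Neurod1, Cbln3, Gh); bars are group means with SD (n = 5 per P5 group, n = 3 per P18 group). The first 4 separate the genotypes at P5, where Mag is at 8.84 to 9.14 in WT and 6.45 to 7.18 in Tg/Tg, and the rest separate them at P18.

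Beyond muscle, the genes that rose at P18 alone, picked after their values were seen, had smaller differences. Nkain2, a partner of the sodium pump, differed by 0.81, Pkia, an inhibitor of protein kinase A, by 0.68, Bche, the butyrylcholinesterase, by 0.63, and Col10a1, the collagen of hypertrophic cartilage, by 0.69. In Nkain2, Pkia and Bche the WT level fell between stages by more than the Tg/Tg level, as in Gjc3 and Fabp7.

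Promoters of a pair of muscle genes that rose at P18 and of a myelin gene that fell at P5 are shown because members of each group moved together; they run from 250 bases before to 50 after the start (RefSeq, GRCm38.p6), 5′ to 3′ on the strand of the gene, with the searched motifs in capitals.
Atp2a1 (chr7:126463024-126463323, minus strand): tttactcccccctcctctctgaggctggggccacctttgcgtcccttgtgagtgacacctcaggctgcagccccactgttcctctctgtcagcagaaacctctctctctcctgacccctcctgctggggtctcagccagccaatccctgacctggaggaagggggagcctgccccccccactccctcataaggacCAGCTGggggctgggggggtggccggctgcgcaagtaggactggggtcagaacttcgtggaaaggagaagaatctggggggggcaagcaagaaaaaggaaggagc
Myh1 (chr11:67199852-67200151, plus strand): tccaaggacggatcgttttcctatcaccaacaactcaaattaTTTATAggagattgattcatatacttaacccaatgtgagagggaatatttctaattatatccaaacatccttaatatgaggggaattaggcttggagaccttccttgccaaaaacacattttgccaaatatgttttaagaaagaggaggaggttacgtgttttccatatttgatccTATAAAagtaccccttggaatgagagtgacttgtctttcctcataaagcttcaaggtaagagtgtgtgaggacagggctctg
Mag (chr7:30914814-30915113, minus strand, 1 of 3 starts): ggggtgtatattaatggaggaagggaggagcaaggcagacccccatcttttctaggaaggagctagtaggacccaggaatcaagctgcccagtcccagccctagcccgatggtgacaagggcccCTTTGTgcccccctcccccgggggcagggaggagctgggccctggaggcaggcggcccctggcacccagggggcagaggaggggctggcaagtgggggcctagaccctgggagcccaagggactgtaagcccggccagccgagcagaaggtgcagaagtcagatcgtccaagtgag
The motifs searched, on both strands and with overlaps between motifs allowed, were CAGCTG, an E-box that myogenic factors bind, TATAAA, the TATA box, and ACAAAG, a core that Sox proteins bind. CAGCTG was in 17 of 46 matched promoters of genes that rose at P18 alone (37.0%), in 8 of 55 of those that fell at P5 alone (14.5%) and in 4353 of all 27025 promoters (16.1%). TATAAA was in 12 of 46 (26.1%), 3 of 55 (5.45%) and 14.2% of all. ACAAAG was in 4 of 46 (8.70%), 8 of 55 (14.5%) and 18.7% of all. In the promoters shown, CAGCTG of Atp2a1 begins 55 bases before the start, TATAAA of Myh1 begins 32 bases before it, and the ACAAAG of Mag lies on the opposite strand, 126 bases before it. A match is a string of letters in this window and says nothing of binding.

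With all arrays weighted alike, the differences toward lower values at P18 were few, in 19 probesets. This count was 162 without P5-OC Tg/Tg replicate 3, 129 with weights per stage and 1372 with weights per array. Among the 19, neuronal genes were foremost: 5 of the 8 named genes that fell at P18 alone were on the cerebellar or general neuron lists. Gabra6, the GABA receptor subunit of cerebellar granule cells, read 4.09 to 4.14 in WT and 3.96 to 4.07 in Tg/Tg at P5. At P18 it read 5.65, 5.69 and 5.63 in WT and 3.86, 3.71 and 3.82 in Tg/Tg. Only the P18 WT arrays lie above 4.54, so the gene was measured well in 1 of 4 groups and the size of the difference, -1.77 (standard error 0.08, adjusted p = 2e-08), is limited by background. Neurod1, a transcription factor of granule and spiral ganglion neurons, has the same form, at 3.82 to 4.26 on all P5 arrays and at 5.91, 5.61 and 5.82 in WT and 3.90, 4.07 and 3.90 in Tg/Tg at P18 (difference -1.90, standard error 0.15, limited in the same way). Cbln3, a synaptic organizer of granule cells, had a difference of -1.12, Rgs8, a Purkinje cell regulator of G protein signaling, of -0.99, and Slc12a5, the neuronal chloride exporter, of -0.80.

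Of 26 measured granule neuron genes 3 differed toward lower values and 1, Il16, toward higher, with a median of -0.34. Over all 19938 named genes 16 differed toward lower values and 164 toward higher. At an unadjusted p under 0.05 in limma, 15 of the 26 differed, 12 of them toward lower, beside 3304 and 1212 of all named genes. At P18 6 of the 26 were called as falls, beside 18 of all named genes. Those beyond the 3 that differed were Cbln1 (-0.69), Kcnd2 (-0.63) and Zic1 (-0.72), whose differences did not pass. The Purkinje list had 1 of 11 and a median of -0.29, and the general neuron list 1 of 27 and a median of 0.16. The mean log2 level of 5 granule neuron markers was 4.87 to 5.10 on P5 arrays, 6.17 to 6.23 on P18 WT arrays and 5.11 to 5.16 on P18 Tg/Tg arrays, so that P18 WT stood apart. Its part in the result was not tested. The spiral ganglion list had a different outcome, with Kcna1 and Kcna2 toward higher values, Neurod1 toward lower, and a median of 0.20 over 21 genes.

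Gh, the growth hormone of the anterior pituitary, read 5.31 to 6.14 in WT and 5.59 to 6.17 in Tg/Tg at P5, and 7.90, 7.80 and 7.82 in WT and 6.61, 6.39 and 6.65 in Tg/Tg at P18. It overlapped at P5 and was higher in each P18 WT array than in any P18 Tg/Tg array, with a difference of -1.61 (standard error 0.23, adjusted p = 0.002). It was the single gene of 9 on the pituitary list to differ. All 9 had differences below 0, as had 9370 of 19938 named genes, and 2 of the 9 had an unadjusted p under 0.05 in limma. The group means of 3 of the 9 were under 4.54 in all 4 groups, and Cga and Tshb were under it on every array. Mir144, an erythroid microRNA, was at 2.53 to 2.93 on all P5 arrays, under the level of background, and at 6.65 to 6.76 in WT and 5.85 to 6.06 in Tg/Tg at P18 (difference -0.71, adjusted p = 0.011, lost in 3 alternative settings). Arhgef33 (-0.86) and Megf11 (-0.64) passed as well, and lost their calls in 8 and 5 alternative settings.

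**Figure D4:**
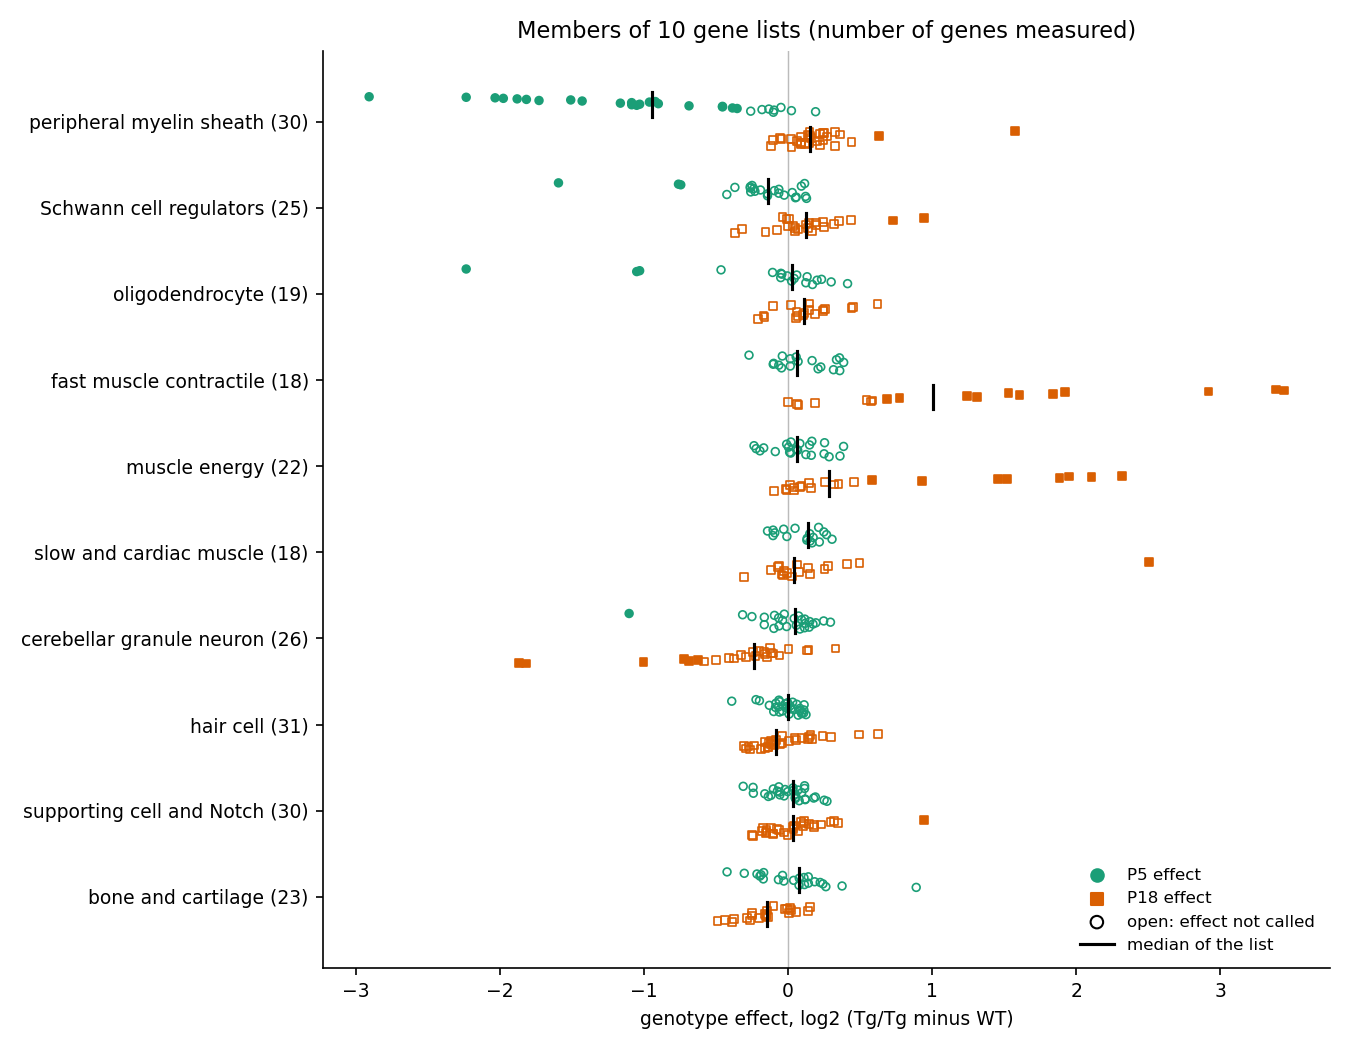
Genotype effect (x axis, log2, Tg/Tg minus WT) at P5 (green circles) and P18 (orange squares) of every measured member of 10 gene lists; filled symbols passed the test at that stage and black bars are medians. Median effects move from -0.94 to 0.15 for the myelin list and from 0.06 to 1.01 for the fast muscle list.

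A further set of differences lies in a row of genes on chromosome 9, the chromosome of the transgene insertion. Rwdd2a, which encodes a small protein with an RWD domain, read 5.47, 5.55, 5.99, 5.60 and 5.67 in WT and 7.65, 7.83, 8.64, 8.07 and 8.31 in Tg/Tg at P5, and 6.37, 6.45 and 6.15 against 7.31, 7.30 and 7.04 at P18. Tg/Tg lay above WT without overlap at both stages, by 2.44 at P5 (adjusted p = 3e-07) and by 0.89 at P18, where the adjusted p was 0.085. The difference was -1.55 (standard error 0.26, adjusted p = 0.0074), and once the Y-linked mean was added as a covariate its adjusted p was 0.058.

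Next in order come Pgm3, Dop1a, which serves membrane traffic, and Ube2cbp. Dop1a read 7.95, 8.40, 7.90, 8.09 and 8.22 in WT and 8.68, 8.78, 8.64, 8.63 and 8.78 in Tg/Tg at P5, and 7.60, 7.91 and 7.89 in WT and 7.32, 7.52 and 7.51 in Tg/Tg at P18. Tg/Tg was above every WT array at P5 and below every WT array at P18, with effects of 0.59 (adjusted p = 0.0055) and -0.35 (adjusted p = 0.36) and a difference of -0.94 (adjusted p = 0.0074). Ube2cbp rose by 0.43 at P5 (adjusted p = 0.0084), had an effect of 0.00 at P18, and its difference of -0.43 had an adjusted p of 0.139. The effect at P5 thus ran 2.44, 0.73, 0.59 and 0.43 along the row, and at P18 0.89, -0.68, -0.35 and 0.00. Among the other 13 of the 17 measured genes in this stretch, none was called at either stage by limma, and their differences ranged from -0.11 to 0.34.

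**Figure D5:**
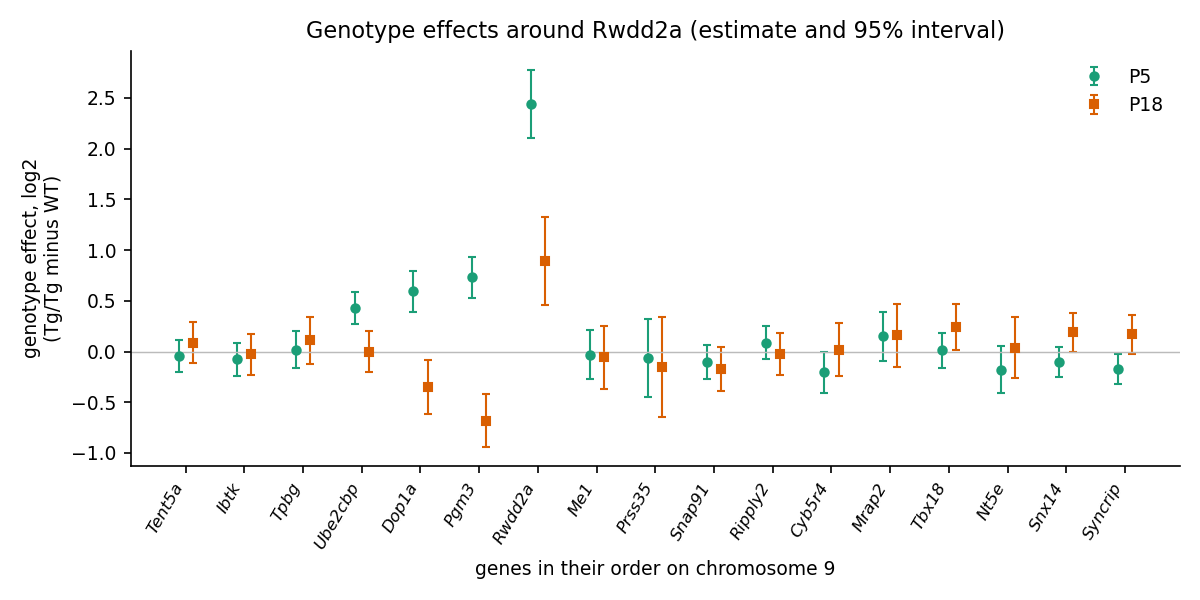
Genotype effect (y axis, log2, Tg/Tg minus WT) with its 95% interval at P5 and P18 for 17 measured genes of chromosome 9 in gene order (x axis, place relative to Rwdd2a). Rwdd2a and the 3 genes next to it on 1 side are those with an interval above 0 at P5, and Pgm3 and Dop1a have intervals below 0 at P18.

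Lists of the sensory epithelium and lateral wall had few members that differed, as had all probesets (0.596%). On the hair cell list 0 of 31 differed (limma, adjusted p under 0.05), with a median of -0.08. An unadjusted p under 0.05 was found for 5 of them, and for 3304 of all 19938 named genes. A single hair cell gene differed without P5-OC Tg/Tg replicate 3, without P5-OC WT replicate 1, with weights per stage and with P5 replicates 1-2 and 3-5 as a block, and 3 with weights per array. On the lists for tectorial membrane and stria vascularis 0 of 15 and 0 of 16 differed, with 1 and 3 at an unadjusted p under 0.05 and medians of 0.01 and 0.12. Supporting cell and Notch genes had 1 of 30, which is Fabp7 again (difference 0.83, adjusted p = 0.00083). Mean levels of the hair cell markers (7.38 to 7.78 in WT and 7.38 to 7.85 in Tg/Tg at P5, 6.73 to 6.79 and 6.67 to 6.77 at P18) and of the supporting cell markers (10.2 to 10.7 on P5 arrays, 8.58 to 8.70 on P18 arrays) overlapped between genotypes at both stages. Macrophage, lymphocyte, marrow, bone and cell cycle lists had no member that differed, and medians of 0.00, -0.14, -0.37, -0.09 and -0.21. At an unadjusted p under 0.05 they had 1 of 20, 6 of 17, 10 of 25, 5 of 23 and 7 of 30, and all those of the marrow, bone and cell cycle lists were toward lower values at P18. The count over all named genes was 3304 of 19938, with 1212 of them toward lower values. With weights per array, where 3234 of all 34760 probesets differed, 8 of the 25 marrow genes differed, all toward lower values. In that setting 3 lymphocyte, 2 cell cycle and 1 bone gene differed toward lower values, and 1 lymphocyte and 1 macrophage gene toward higher. A single marrow gene differed without P5-OC Tg/Tg replicate 3, with weights per stage and with P5 replicates 1-2 and 3-5 as a block. Mean levels of the bone markers (10.89 to 10.93 in Tg/Tg and 11.13 to 11.18 in WT), of the marrow markers (11.13 to 11.21 and 11.23 to 11.32) and of the macrophage markers (7.92 to 7.99 and 8.05 to 8.11) did not overlap between genotypes at P18, and overlapped at P5. These means were lower in P18 Tg/Tg by small amounts, and none of their markers had a difference that was called. The granule neuron markers were lower there too, whereas the muscle markers were higher, and by far more. The part of these other tissues in the muscle and neuron results was not tested. Marrow genes rose with stage in both genotypes, by a median of 5.0 in WT and 4.51 in Tg/Tg.

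Of 39 reported targets of the cluster, 2 differed, both toward higher values at P18, beside 164 of 19938 named genes. The list median was 0.10. At an unadjusted p under 0.05 in limma, 10 differed, 9 of them toward higher, beside 3304 and 2092 of the 19938. At P5 3 were called as falls and 0 as rises, beside 172 and 15 named genes. An unadjusted p under 0.05 at P5 was found for 12, 0 of them higher, beside 3512 and 1227 named genes. Mitf, the master factor of pigment cells, had effects of -0.43 and 0.32 and a difference of 0.75 (adjusted p = 0.046), and Cacna2d1, a calcium channel subunit, had effects of -0.05 and 0.55 and a difference of 0.61 (adjusted p = 0.033). Each has a further probeset that was not called, with differences of 0.12 and 0.32, and the calls were lost in 14 and 12 alternative settings. Gabra5, a GABA receptor subunit, was the only gene other than the 4 transgene elements whose rise was called at both stages, by 0.45 and 0.89. Its difference of 0.45 (95% interval 0.13 to 0.76) had an adjusted p of 0.21 in limma. Rwdd2a was higher in Tg/Tg at both stages too, by 2.44 and 0.89, but was not called at P18.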

How the data were processed

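RNA purified on RNeasy columns was labeled by the standard Affymetrix route and hybridized to MoGene 1.0 arrays. The deposited values are log2 signals per probeset. The study's methods name limma and an age by genotype analysis of variance, and the background correction, normalization and build are not given in the sources used here.

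Here limma 3.58.1 (R 4.3.3) fitted 4 group means to 16 arrays and 34760 probesets as deposited, with no filter, 12 residual degrees of freedom and a prior of 3.23. Tests were two-sided, with Benjamini-Hochberg adjustment over all probesets of a contrast and a threshold of 0.05. Groups followed sample names, since age or genotype fields conflict with them in 16 of 16 samples. The platform annotation gives 21640 probesets 1 gene, 1321 several and 11799 none. The probeset of Prx was named from the paper's table. In lists the probeset with the highest mean stands for a gene. Members and lists were chosen with earlier results of these data known. Genes named are the transgene elements and Rwdd2a, 12 per direction by adjusted p, those called at both stages, and up to 3 members of a list with the opposite extreme. Others are said to be picked later or are list members.

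On simulated data with 50 probesets changed per fold, 36%, 74%, 98% and 100% of differences of 1.5, 2, 4 and 8 fold were recovered, with 13 false calls among 34760. The simulated noise was independent, with 1 spread per probeset on all arrays. The real P5 arrays scattered more than the P18 arrays and were uneven in Y-linked level, so these rates may not hold for the data. The alternatives were 29 planned settings and 3 added after the data were seen. The number of arrays limits precision.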

Additional observations from a re-analysis of the deposited data

Results flagged for a closer look

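A test of the difference itself marked 46 of the 61 named genes as having a genotype effect that was not the same at P5 and P18 (limma, adjusted p under 0.05). The size is given here as the ratio between the Tg/Tg to WT ratios of the stages, on the linear scale. Among genes higher in relation to WT at P18 that had fallen at P5 and risen at P18, it was 22.3 for Pmp2, 2.93 for Gjc3, 2.29 for Itgb8, 2.15 for Snx16, 1.83 for Lcorl and 1.74 for Cyp2j6. Among those that had fallen at P5 alone, it was 5.21 for Mag, 4.55 for Slc9a3, 3.64 for Pllp, 2.94 for Egr2, 2.68 for Dusp4, 2.07 for Mbp and 1.97 for Il16. For muscle genes that had risen at P18 alone, it was 12.6 for Myl1, 11.2 for Myh1, 10.5 for Atp2a1, 7.26 for Tnnt3, 5.86 for Myoz1, 5.71 for Casq1, 4.90 for Actc1, 4.74 for Trdn, 4.44 for Ckm, 3.61 for Mb, 3.48 for Ckmt2, 3.40 for Neb, 2.90 for Ttn and 1.73 for Myf6. The other genes that had risen at P18 alone were Fabp7 (1.78), Cdh19 (1.55) and Cacna2d1 (1.52), and Aspa (2.12) and Mitf (1.68) had no call at either stage. Toward lower values at P18 the ratio was 3.06 for Gh, 2.93 for Rwdd2a, 2.67 for Pgm3, 2.17 for Cbln3, 1.98 for Rgs8, 1.92 for Dop1a, 1.81 for Arhgef33, 1.75 for Slc12a5 and 1.56 for Megf11. For genes with a mean under 4.54, near background, in 1 to 3 of the 4 groups, the ratio of the signals is no measure of size: it read 3.73 for Neurod1, 3.40 for Gabra6 and 1.64 for Mir144 toward lower values, and 2.64 for Mstn and 2.28 for Asb12 toward higher. Of the 46, 37 kept their call in every setting in which they were tested, apart from those that used only some of the P5 replicates.

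A single P5 array stood far from the other 4 of its group in 8 of 122 groups tested, with a gap to its nearest neighbour of over 0.71 of the group's range. Chance marks about 1 group in 20. In P5-OC Tg/Tg these were replicate 1 for Myl1 (0.732) and Pgm3 (0.727), replicate 2 for Mir144 (0.783) and Cyp2j6 (0.723), replicate 4 for Snx16 (0.711) and replicate 5 for Myf6 (0.777). In P5-OC WT replicate 2 stood apart for Pgm3 (0.723) and Ckmt2 (0.786).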

How the results depend on the processing

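Against 207 probesets (188 higher, 19 lower), 362 (320 and 42) differed with P5 replicates 1-2 and 3-5 as a block, a split no label gives, 3234 (1862 and 1372, 57.6% higher) with weights per array, 673 (544 and 129, 80.8% higher) with weights per stage, 386 (330 and 56) among probesets with 1 gene name, 331 (288 and 43) without those of identifiers below the lowest annotated, and 111 (100 and 11) with the mean of the Y-linked probesets added as a covariate. With a difference of at least 1 the count was 95, and 111 at an adjusted p under 0.01. P5 replicates 1-2 alone gave 103 (89 higher) and replicates 3-5 alone 275, with 40 lower. These last 2 settings and the one on identifiers were chosen after seeing the data. Leaving out 1 array gave 127 to 584 in all, 115 to 422 higher and 11 to 162 lower. The lower count was 55 without P5-OC WT replicate 1, 12 without P5-OC WT replicate 5, P18-cochlea Tg/Tg replicate 2 or 3 or WT replicate 1, and 11 without P18-cochlea WT replicate 3. The total stayed within 1.5 times with a variance trend (272), robust variance (205), repeated quantile normalization (167), centred arrays (236) and the dimmest 50% left out (291). The causes of these shifts were not tested.

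Whether replicate numbers pair the samples was not settled. Same-numbered genotypes correlated at 0.29, 0.36, -0.11, 0.20 and -0.22 at P5 and at 0.07, 0.00 and 0.01 at P18. Differently numbered ones correlated at -0.47 to 0.48 at P5 and at -0.05 to 0.04 at P18. For P5 replicates 1 and 2 the same-numbered value was the highest that either array had with the other genotype. With the replicate number as a block 142 probesets differed, 125 higher and 17 lower, 126 of them among the 207.

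The 6 genes that fell at P5 and rose at P18 kept the call of their difference in all 26 planned settings that tested all 6, and 4 kept it with P5 replicates 1-2 alone, where Pgm3 lost it too. The difference of Prm1 passed in 7 settings (-1.06 to -1.53): both weightings, repeated quantile normalization, the dimmest 50% left out, 1 gene name, the identifier setting and without P5-OC Tg/Tg replicate 4. For Mir183 and Mir96 the sign turned without a call. Mir183 was at -0.076 with the Y-linked covariate, -0.018 to 0.25 over the settings that leave out 1 array (below 0 without P5-OC Tg/Tg replicate 4) and -0.26 with P5 replicates 1-2 alone. Mir96 was at 0.0053 with weights per array, -0.21 to 0.16 with 1 array left out (above 0 without P18-cochlea WT replicate 3, P5-OC Tg/Tg replicate 1 or 3 or P5-OC WT replicate 1) and 0.14 with P5 replicates 3-5 alone. Levels under 4.54, the lowest of the arrays' lower quartiles, are near background, which limits Gabra6 and Neurod1 in all groups but P18 WT, Asb12 in all but P18 Tg/Tg, Mir144 at P5, Mstn in P18 WT and WT levels of the cluster. That value is from a P18 array, and the P5 arrays had lower quartiles of 4.82 to 5.05. The P5 means of Myh1 (4.73 in Tg/Tg, 4.77 in WT) and Ckmt2 (4.81 and 4.73) lay under these, so their sizes may be limited too. P5 means of Myf6 and P5 WT means of Mir96 and Mir182 lay within that range.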

Other observations

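Some genes that differed without a call at either stage are given here, picked after their values were seen. Ctnna3, a catenin of cell junctions, had effects of -0.64 and 0.57 and a difference of 1.21 (standard error 0.24), and Plxnb3, a semaphorin receptor, had effects of -0.39 and 0.37 and a difference of 0.76. In the other direction St18, a zinc finger transcription factor, had effects of 0.27 and -0.43 and a difference of -0.71, and Chtf18, a factor of chromosome replication, 0.27, -0.27 and -0.54.

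Immediate early genes had 1 of 23 that differed, Egr2, and a median of 0.01. On the melanocyte list 1 of 12 differed, Mitf, with a median of 0.06. The list of thyroid and cochlear maturation genes had 0 of 14 by limma (2 at an unadjusted p under 0.05, beside 3304 of 19938 named genes), with a median of 0.16.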
